A study of Homo sapiens with 2 samples.

Results

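Kinesins are motor proteins that use ATP to move along microtubules or to take them apart. Some members of the superfamily build and position the mitotic spindle, move chromosomes or complete cytokinesis, and their genes are transcribed mainly in cells that approach division. Others carry vesicles, organelles and RNA through the cytoplasm at any stage of the cell cycle, and several of these serve neurons or cilia. The genes described here are the 42 kinesin genes, of 23368 genes in all, whose symbol is KIF followed by a number and, for some, a letter A to C, or KIFC followed by a number. By textbook role they were sorted into 15 mitotic kinesins, 15 transport kinesins and 12 others, which act in cilia, in signalling or on microtubule growth, lack a working motor, or have a role that is not well established.

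The measurements are bulk RNA-seq of SUM159, an established triple-negative breast cancer cell line, of wild-type genotype per the labels. The cells grew attached, in a monolayer, and had gained resistance to doxorubicin, an anthracycline that traps topoisomerase II on DNA, under escalating doses, which the labels call a long-term treatment and the methods describe as short exposure followed by recovery without the drug. There are 2 libraries of this 1 condition, labelled replicates 1 and 2, and no source says whether these were different cultures, so their spread may be technical only. Treatment-naïve and paclitaxel-resistant cells were not analysed here, and the values are therefore levels in resistant cells and no changes upon resistance. Values are CPM, counts per 1000000 of the library's total count, and, wherever genes are set against each other, CPM per kb of exonic length, since long transcripts give more reads. Totals were 17985508 counts in replicate 2 and 23044084 in replicate 1, where 1 count is 0.0556 and 0.0434 CPM. With 3 counts as the limit, a count of 0 leaves room for at most 0.167 CPM in replicate 2 and 0.130 in replicate 1, which covers counting error only. To check the cell line's label, its receptor genes were read first. The estrogen receptor gene ESR1 had 9 and 11 counts in replicates 2 and 1, the progesterone receptor gene PGR had 0 and 2, and the mesenchymal filament gene VIM had 6925 and 8159 CPM. ERBB2, the gene of HER2, had 104 and 95.1 CPM.

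In RefSeq, 34 of the 42 genes have promoter sequences, and 2 short elements occurred more often at the mitotic than at the transport kinesins. The cell cycle genes homology region (CHR) is the element through which the DREAM and MuvB complexes restrain mitotic genes outside G2 and M phase and then activate them, and the CCAAT box is bound by the factor NF-Y. The CHR was searched for as the letters TTTGAA and also as the letters TTCGAA, on both strands, from 250 bases before to 50 bases after the start. It occurred at 11 of 15 mitotic kinesin genes, at 1 of 11 transport kinesin genes and at 1 of 8 others. Counted by promoter, since some genes have several starts, these were 75% of 16 mitotic and 6.25% of 16 transport promoters, against 16.4% of all 35116 promoters. The letters CCAAT, on either strand, occurred in 68.8% of mitotic and 31.2% of transport promoters, against 34.6% of all. Both elements together occurred at 10 mitotic kinesin genes, at 1 transport kinesin gene and at 1 of the others. Counted by promoter, these were 62.5% of 16 mitotic, 6.25% of 16 transport and 9.09% of 11 other promoters, against 6.38% of all. A match of letters is a description and does not show that a factor binds there. KIF5A, KIF13B, KIF19, KIF21B, KIF26B, KIF27, KIFC2 and KIFC3 have no entry in the table.

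The following stretches end at the last base before the start and are written 5′ to 3′ on the strand of the gene, with capitals for the letters of the CHR and of the CCAAT box on either strand. Read on the other strand, the box appears as the letters ATTGG. Shown first are mitotic kinesins that carry both elements close to the start, in which the box lies before the CHR. They are KIF11 on chromosome 10 of GRCh38.p14 from 92593030 to 92593129, KIF23 on chromosome 15 from 69414249 to 69414348, KIF4A on chromosome X from 70290004 to 70290103, KIF22 on chromosome 16 from 29790651 to 29790750 and, on the minus strand, KIF18A on chromosome 11 from 28108157 to 28108256.
KIF11: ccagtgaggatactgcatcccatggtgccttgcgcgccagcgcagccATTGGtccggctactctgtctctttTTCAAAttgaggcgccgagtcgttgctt
KIF23: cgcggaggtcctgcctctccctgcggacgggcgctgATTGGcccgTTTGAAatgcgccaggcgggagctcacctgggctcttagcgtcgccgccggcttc
KIF4A: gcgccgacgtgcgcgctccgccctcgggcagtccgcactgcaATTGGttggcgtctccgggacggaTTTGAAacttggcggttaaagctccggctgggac
KIF22: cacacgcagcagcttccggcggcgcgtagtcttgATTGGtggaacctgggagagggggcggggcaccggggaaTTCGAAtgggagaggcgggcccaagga
KIF18A: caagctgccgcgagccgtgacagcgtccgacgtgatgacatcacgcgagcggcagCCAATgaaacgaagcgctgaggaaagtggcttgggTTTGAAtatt
Counted back from the start, the first base of the CHR is at -28 in KIF11, -55 in KIF23, -34 in KIF4A, -27 in KIF22 and -10 in KIF18A.

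The most abundant mitotic and the most abundant transport kinesin per kb are shown for contrast. KIF20A, on chromosome 5 of GRCh38.p14 from 138179012 to 138179111, has 2 CCAAT boxes and none of the CHR letters searched for, and KIF5B, on the minus strand of chromosome 10 from 32056426 to 32056575, is the transport kinesin with the CHR letters, which stand at -140 and before the box.
KIF20A: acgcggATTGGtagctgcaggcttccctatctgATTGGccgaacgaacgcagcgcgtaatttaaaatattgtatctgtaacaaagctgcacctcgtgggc
KIF5B: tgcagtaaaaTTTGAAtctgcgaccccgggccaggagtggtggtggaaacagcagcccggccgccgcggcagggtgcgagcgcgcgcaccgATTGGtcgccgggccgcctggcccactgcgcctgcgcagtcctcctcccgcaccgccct
Of the other mitotic kinesins, KIF15 has a CHR at -35 and no CCAAT box. KIF14, KIF18B, KIF4B and KIFC1 have it at 2 to 5 bases after the start, and KIF20B has 2 copies, at 25 and 31. KIF2A, KIF2B and KIF2C have neither element in the window. Among the others, KIF24 has a CHR at 2 and 3 CCAAT boxes.

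In the doxorubicin-resistant cells, 31 of the 42 kinesin genes reached a mean count of 20, the lower bound of the study's own methods, against 52.8% of all 23368 genes, and 16 reached a mean of 1000. They comprised 13 of 15 mitotic, 12 of 15 transport and 6 of 12 other kinesins. The most abundant per kb were KIF20A, which brings Aurora B to the central spindle, and KIF5B, the heavy chain of conventional kinesin in most tissues. Mitotic kinesins were higher than transport kinesins per unit of length, with a median of 11.2 CPM per kb in replicate 2 and 8.11 in replicate 1, against 3.77 and 2.98 CPM per kb for transport kinesins. The ratio of these medians was 2.96 in replicate 2 and 2.72 in replicate 1, a mean log2 ratio of 1.50 ± 0.0873 (SD, n = 2). Genes are not replicates of each other, so the lists were described and not tested against each other. Of the 12340 genes with a mean count of at least 20, 10767 had a matched length. Their median was 6.63 CPM per kb in replicate 2 and 6.17 in replicate 1. In the mean of the libraries, 12 of 15 mitotic, 5 of 15 transport and 1 of 12 other kinesins were above the median. As RNA of many cells was pooled, the share of dividing cells and the RNA per cell cannot be told apart in these levels.

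**Figure D1:**
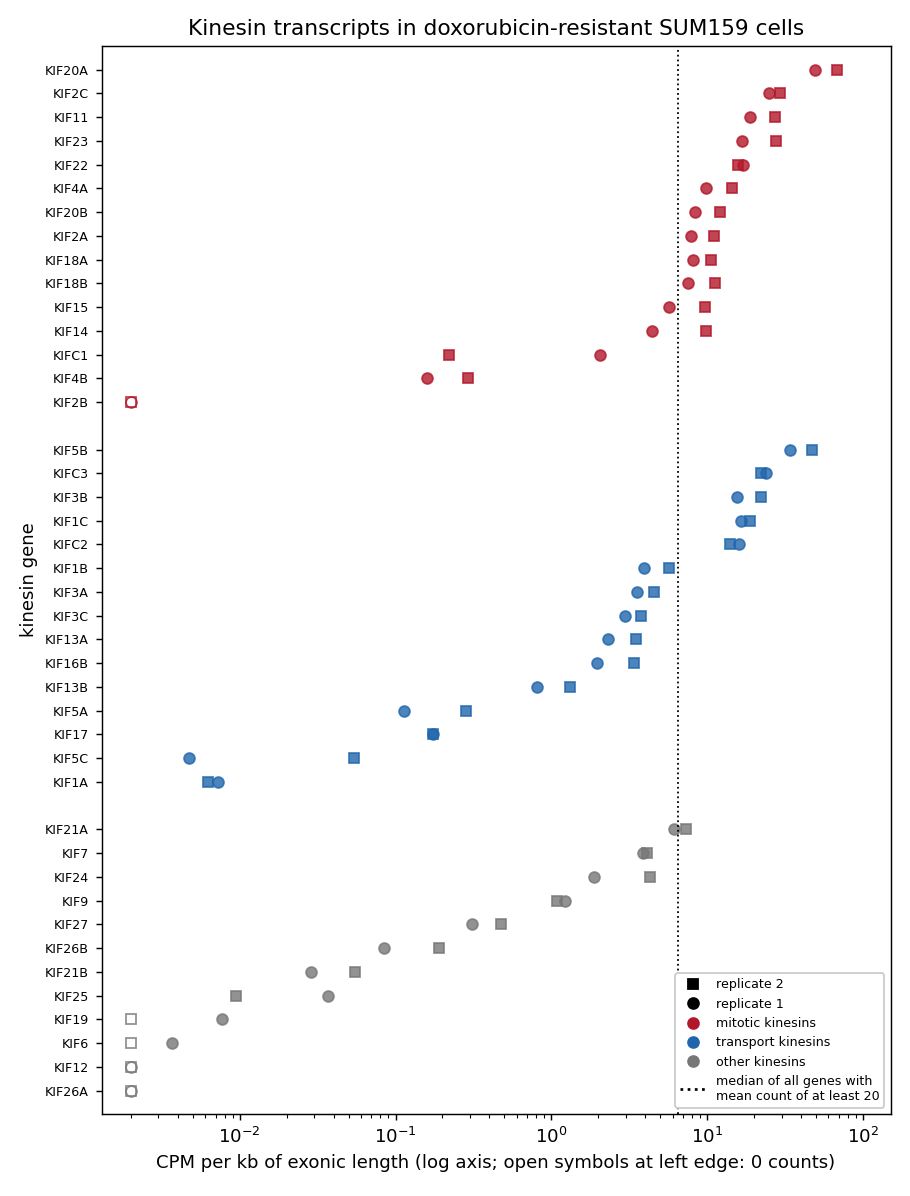
CPM per kb of exonic length, on a log axis, of the 42 kinesin genes in the 2 libraries of doxorubicin-resistant SUM159 cells. Mitotic kinesins are at the top, transport kinesins below them and others at the bottom. Squares are replicate 2, circles replicate 1, and open symbols at the left edge stand for 0 counts. The dotted line is the median of all genes with a mean count of at least 20 and a matched length. Most mitotic kinesins lie right of the line, 12 of 15, whereas transport kinesins spread from KIF5B at 47.3 and 33.9 down to KIF1A at 0.00622 and 0.00728.

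The lists overlapped at the top and parted in the middle. Among the 10 highest kinesins per kb, 5 were mitotic and 5 transport kinesins, and among the 20 highest 12 were mitotic, 7 transport and 1 from the others. Summed over all kinesins, mitotic members accounted for 60.1% of CPM per kb in replicate 2 and 57.1% in replicate 1, transport members for 35.7% and 38.6%, and others for 4.25% and 4.31%. Without regard to length, the sums were 1327 and 957 CPM for mitotic and 1096 and 906 CPM for transport kinesins. The median exonic length was 4.72 kb in the mitotic list and 8.58 kb in the transport list, so the lists lie closer together on the CPM scale.

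Motors of cytokinesis included the highest mitotic kinesin. KIF20A spans bases 137514408 to 137523412 of chromosome 5 in GRCh37. It reached 264 CPM in replicate 2 and 188 in replicate 1, which is 68.5 and 48.8 CPM per kb. Per kb of exonic length, KIF20A ranked above all other kinesins in both libraries. In the mean of the libraries it was above 94.0% of genes with a mean count of at least 20 and a matched length. In CPM, however, KIF5B was above it in both libraries, with 278 and 199, and KIFC3 in replicate 1, with 231. The rank of KIF20A among all kinesins therefore rests on the length taken. KIF23, which forms the centralspindlin complex with RACGAP1 and bundles the microtubules of the midzone, had 182 and 110.4 CPM, or 27.6 and 16.8 CPM per kb. KIF20B, a relative of KIF20A that also acts in cytokinesis, was lower, with 82.6 and 57.6 CPM, or 12.0 and 8.39 CPM per kb. KIF14, which recruits citron kinase to the midbody, had 71.2 and 32.1 CPM, or 9.76 and 4.40 CPM per kb.

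Described next are motors that set up the spindle and those that shorten microtubules, of which KIF2C was above KIF23 per kb in both libraries. KIF11, the motor that pushes the spindle poles apart and the target of spindle inhibitors such as monastrol, had 146 CPM in replicate 2 and 101 in replicate 1, or 27.4 and 18.9 CPM per kb. KIF15, which can keep the poles apart beside KIF11, was lower per kb, at 9.69 and 5.69. KIF2C, also called MCAK, removes wrongly attached microtubules at kinetochores and lies on chromosome 1 of GRCh37 from 45205490 to 45233439. It had 1909 and 2084 counts, 106 and 90.4 CPM, or 29.1 and 24.8 CPM per kb. Its relative KIF2A, a depolymerase of spindle poles that also works in neurons, had 11.0 and 7.83 CPM per kb. KIF2B, another depolymerase of this group, had no counts in either library. KIF18A, which aligns chromosomes, and KIF18B, which shortens astral microtubules, had nearly equal levels, with 10.6 and 8.11 CPM per kb for KIF18A and 11.2 and 7.50 for KIF18B, and their order changed between the libraries. The chromokinesins KIF22 and KIF4A, which bind chromosome arms, had 15.7 and 17.0 CPM per kb for KIF22 and 14.4 and 9.80 for KIF4A.

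Among transport kinesins, KIF5B stood highest per kb of exonic length. Its gene spans bases 32297943 to 32345353 of chromosome 10 in GRCh37 and had 278 CPM in replicate 2 and 199 in replicate 1, or 47.3 and 33.9 CPM per kb. KIFC3, a motor that walks to the minus end and acts at the Golgi and at cell junctions, had 213 and 231 CPM, or 22.2 and 24.0 CPM per kb of an exonic length of 9.60 kb. Its longest transcript measures 3549 bases, whereas that of KIF5B, at 5866 bases, equals the exonic length of KIF5B. The level of KIFC3 per kb, and its order against KIF5B, therefore rest on the length taken. In CPM, KIFC3 was above KIF5B in replicate 1 and below it in replicate 2. KIF3B, which pairs with KIF3A in the motor of intraflagellar transport, had 22.0 and 15.6 CPM per kb. KIF1C, a carrier of vesicles and RNA, had 18.8 and 16.4 CPM per kb, and KIFC2, a minus-end motor known from neurons, had 14.0 and 16.1. Below these came the endosome motors KIF13A, with 3.49 and 2.29 CPM per kb, and KIF16B, with 3.37 and 1.97, and then KIF13B, with 1.32 and 0.812.

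Several other motors known from neurons had few counts, unlike KIFC2. KIF1A, which carries precursors of synaptic vesicles, had 2 counts in replicate 2 and 3 in replicate 1. KIF5C, a neuronal heavy chain, had 9 and 1, and KIF5A, another, had 62 and 32. KIF17, a motor of dendrites and cilia, had 14 and 18 counts. In all, 3 transport kinesins, KIF1A, KIF5C and KIF17, were below a mean count of 20, whereas KIF5A passed it with 3.45 and 1.39 CPM.

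Per kb of exonic length, each set of closely related genes was dominated by 1 member, apart from KIF18A and KIF18B. Within conventional kinesin, KIF5B made up 99.3% of the CPM per kb of KIF5A, KIF5B and KIF5C in replicate 2 and 99.7% in replicate 1. KIF3B made up 72.6% and 70.4% of its group, with 14.9% and 16.1% from KIF3A, the partner with which it forms a dimer, and 12.4% and 13.5% from KIF3C, which can take the place of KIF3B. Of KIF1A, KIF1B and KIF1C, KIF1C made up 76.9% and 80.7%, against KIF1B, which moves mitochondria and vesicles, at 23.1% and 19.3%. KIF2C made up 72.5% and 76.0% against KIF2A, and KIF13A 72.6% and 73.9% against KIF13B. The share of KIF2C rests on the length taken, as KIF2A has 13.05 kb of exons and KIF2C 3.65 kb. In CPM, KIF2A was above KIF2C in both libraries, with 144 and 102 against 106 and 90.4. KIF20A made up 85.1% and 85.3% against KIF20B. In each of these groups the order of the members was the same in both libraries. Of the KIF21 motors, which restrain microtubule growth, KIF21A made up 99.3% and 99.5%. KIF4B, an intronless copy of KIF4A, had 23 and 16 counts, a mean below 20, against 1184 and 1033 of KIF4A, and reads that match both copies may have been left out or assigned to either, so both values are uncertain.

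**Figure D2:**
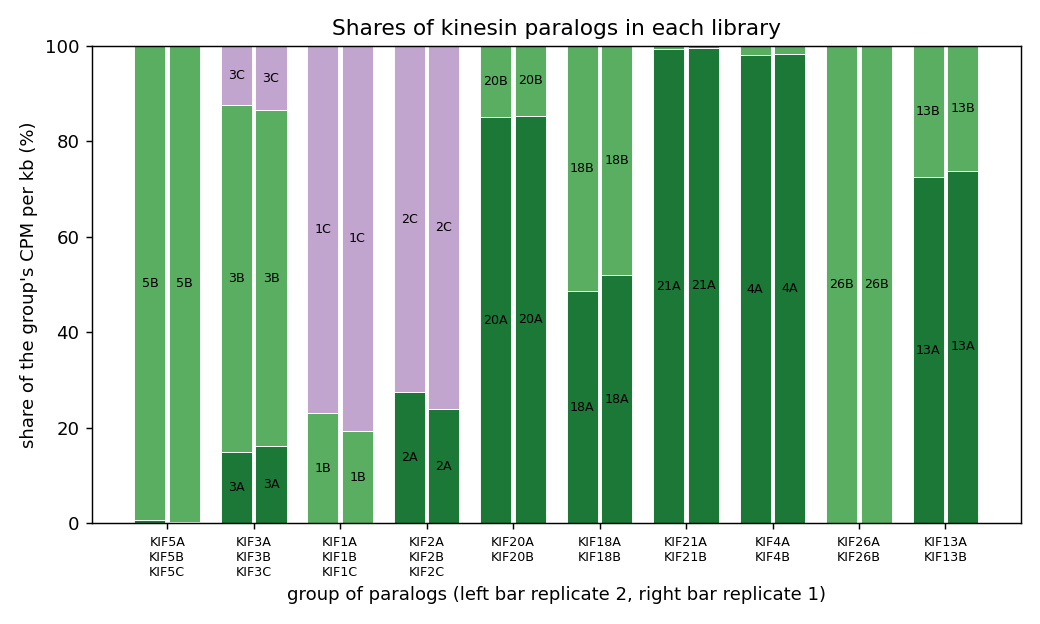
Share, in percent, of each member in the summed CPM per kb of its group of related kinesin genes, with replicate 2 on the left and replicate 1 on the right of each pair of bars; colours mark the members in the order in which the groups are named. KIF5B fills its group at 99.3% and 99.7%, whereas KIF18A and KIF18B share theirs at 48.7% and 51.3% in replicate 2.

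Of the 12 other kinesins, KIF21A was the highest, with 7.29 CPM per kb in replicate 2 and 6.14 in replicate 1. KIF7, which acts on Hedgehog signalling at the tip of the cilium, had 4.09 and 3.87 CPM per kb, and KIF24, a centriolar motor that restrains cilium formation, had 4.29 and 1.88. KIF9, a motor of motile cilia, had 115 and 165 counts and KIF27, a relative of KIF7, 66 and 55. KIF26B, which lacks ATPase activity, had 49 and 28 counts, whereas its paralog KIF26A had none. KIF21B, known from neurons, had 12 and 8 counts. KIF25 had 1 and 5, KIF6 and KIF19, both linked to cilia, had 0 and 1 each, and KIF12 had none in either library. Thus KIF2B, KIF12 and KIF26A were the 3 members without counts.

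The libraries were set against each other with edgeR's exact binomial test for each gene, adjusted by the Benjamini-Hochberg method over all 13744 genes with at least 10 counts in total. This test sets 1 library against the other and says nothing on conditions. Of 35 kinesins tested, 30 were called at an adjusted p below 0.05, against 57.7% of all genes, and 26 were called as higher in replicate 2, against 30.1% of all genes. The 4 higher in replicate 1 were KIFC1, KIFC2, KIFC3 and KIF22, against 27.6% of all genes. KIF4B, KIF7, KIF9, KIF17 and KIF21B were not called. Among genes with a mean count of at least 20, 29 of 31 kinesins were called, against 7782 of all 12340 genes. The median log2 ratio of replicate 2 over replicate 1 was 0.53 over 14 mitotic and 0.49 over 14 transport kinesins, against -0.01 over all genes tested. Over all genes tested, the 5th and 95th percentiles of the log2 ratio were -0.78 and 0.93. The difference between the mitotic and the transport median was not tested.

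With a log2 ratio above 1 as a further condition, 5 kinesins were called as higher in replicate 2, against 3.63% of all genes. KIF14 had 1280 counts in replicate 2 and 739 in replicate 1, a log2 ratio of 1.15 (adjusted p = 2.45e-68 in edgeR's exact test). KIF24 had 500 and 281 counts, a log2 ratio of 1.19 (adjusted p = 9.78e-29 in the same exact test). Both lie well beyond counting error. The other 3, KIF5A, KIF5C and KIF26B, rest on few counts, given above. The proliferation marker MKI67, which is no kinesin, had 419 CPM in replicate 2 and 130.2 in replicate 1. TOP2A, another marker of proliferation, had 649 and 468 CPM, while the cyclin gene CCNB1 had 431 and 407 CPM.

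The difference between the libraries moved with gene length, and long genes tended to be higher in replicate 2. Over 11781 genes with a matched length, exonic length and log2 ratio had a Spearman rho of 0.518, given as a description across genes that share the same libraries. Over the 35 kinesins it was 0.401. When the trend over all genes was subtracted, 28 of 35 kinesins stayed above it, against 5847 of all 11781 genes. The median residual was 0.55 for mitotic and 0.26 for transport kinesins, against -0.00322 over all genes. With the trend as the expected share in an exact binomial test, 25 kinesins were called, 21 of them higher in replicate 2, against 52.8% and 26.8% of all genes, and 4 higher in replicate 1, against 26.1%. KIF1B, KIF1C and KIF21A lost the call, with log2 ratios of 0.06, -0.02 and -0.04 once the trend was subtracted. KIF26B and KIF27 lost it as well but kept log2 ratios of 0.75 and 0.44, on few counts.

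**Figure D3:**
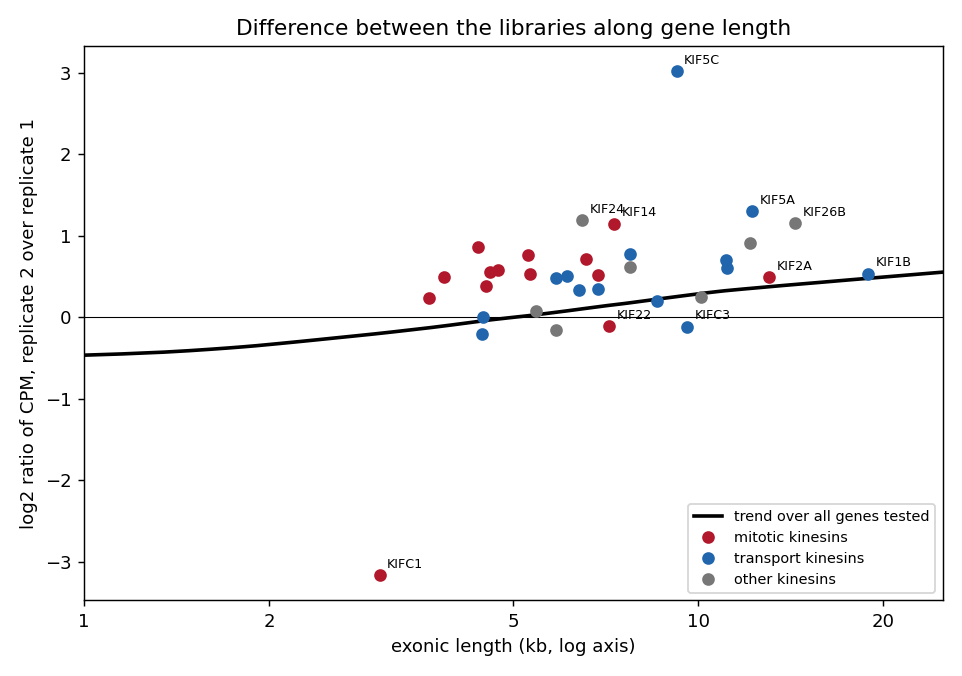
Log2 ratio of CPM, replicate 2 over replicate 1, against exonic length in kb on a log axis for the 35 kinesins tested, coloured by role, with the trend over all 11781 genes with a length as a black line. Of the points, 28 lie above the line, KIF5C is far above it on 9 and 1 counts, and KIFC1 is far below it.

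KIFC1 departed from the other mitotic kinesins in its spread between the libraries, and in level it was among the lowest of them. It encodes a minus-end motor, also called HSET, that focuses spindle poles and gathers extra centrosomes in cancer cells. It spans bases 33359600 to 33377673 of chromosome 6 in GRCh37 and had 12 counts in replicate 2 and 143 in replicate 1, or 0.667 and 6.21 CPM. Its log2 ratio of -3.16 (adjusted p = 2.26e-22 in edgeR's exact test) lay at percentile 0.109 of the genes tested, and 1.84% of all genes were called as higher in replicate 1 with a log2 ratio below -1. Per kb it had 0.220 and 2.05 CPM, and the mitotic kinesins below it were KIF2B in replicate 2, and KIF2B and KIF4B in replicate 1.

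KIFC1 lies at the edge of the major histocompatibility complex, where reads were scarce for other genes too. Of its 29 protein-coding neighbours within 500 kb, 37.9% reached a mean count of 20, against 52.8% of all 23368 genes. For other kinesins with a mean count of at least 20, this share of neighbours ran from 30.8% to 100%, with a median of 69.0%. Of 24 protein-coding genes counted within 500 kb, from HLA-DMB through KIFC1 to ZBTB9, 8 reached a mean count of 20, with a median of 0.111 CPM in replicate 2 and 0.152 in replicate 1 and none above 12.9 and 8.38 CPM. RPS18, which encodes a ribosomal protein that all cells use and lies among these genes, had 1.17 and 2.21 CPM, whereas the median of 80 other cytosolic ribosomal protein genes was 556 and 817 CPM. Farther on, BAK1, which begins 163 kb past the end of KIFC1, had 37.0 and 46.3 CPM, and ITPR3 had 322 and 176, although IP6K3 had 0.0556 and 0.434 CPM and MLN had no counts. A low value of KIFC1 therefore cannot be told apart from a loss of reads over this stretch. Of 14 neighbours tested, none was called with a log2 ratio below -1, although IP6K3, farther out, came close on 1 count in replicate 2 and 10 in replicate 1 (log2 ratio of -2.45, adjusted p = 0.0501 in edgeR's exact test). RPS18 was called with a log2 ratio of -0.90 (adjusted p = 0.0231 in the same exact test), whereas BRD2 was higher in replicate 2 by 1.33. A processed pseudogene, RPL12P1, overlaps 424 bases of its exons on the other strand, and its part in the counts was not tested.

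**Figure D4:**
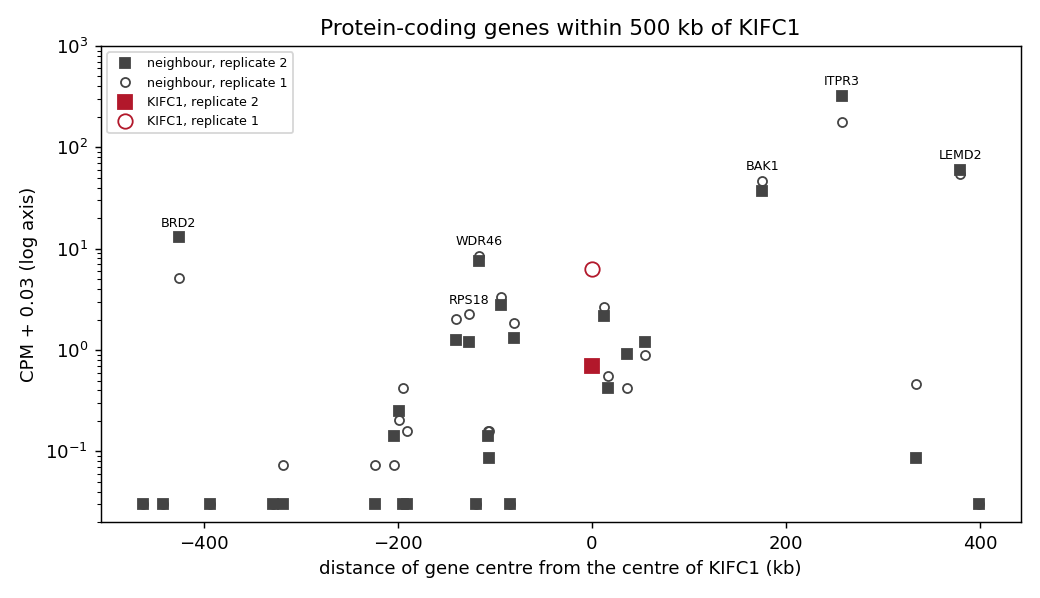
CPM plus 0.03, on a log axis, of protein-coding genes within 500 kb of KIFC1 against the distance of their centres from its centre in kb; filled squares are replicate 2, open circles replicate 1, and KIFC1 is in red. Genes left of KIFC1 and up to ZBTB9 right of it stay at or below 12.9 CPM, whereas of 5 genes farther right BAK1, ITPR3 and LEMD2 lie between 37.0 and 322 CPM and IP6K3 and MLN below 1 CPM, and KIFC1 itself lies at 0.667 and 6.21 CPM.

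Partners of these motors were listed by textbook role, together with 2 kinesins that have other symbols. All 27 genes of this list reached a mean count of 20, against 52.8% of all 23368 genes. The 12 mitotic partners had a median of 113 CPM in replicate 2 and 105 in replicate 1. In CPM, KPNB1, the importin that holds back spindle factors, was highest, with 637 and 446. TPX2, which binds KIF11 and Aurora A, had 354 and 276 CPM. Per kb of exonic length, however, TPX2 was above KPNB1 in both libraries, with 98.2 and 76.7 against 61.8 and 43.2 CPM per kb. RACGAP1, the partner of KIF23, had 118 and 97.2 CPM, and PRC1, which binds KIF4A at the midzone, had 204 and 170 CPM. CIT, the kinase that KIF14 recruits, had 105 and 50.3 CPM. Of the kinases, PLK1 had 134 and 138 CPM and AURKB 32.4 and 35.9. In edgeR's exact test 7 of 12 mitotic partners were called, against 57.7% of all genes, and each of the 7 was higher in replicate 2, against 30.1% of all genes. CENPE, a kinesin of the kinetochore with a symbol of another kind, had 69.9 and 40.2 CPM, or 7.05 and 4.05 CPM per kb, in the range of KIF14. STARD9, a kinesin of centrosomes, had 26.9 and 12.8 CPM.

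The 13 transport partners had a median of 53.5 CPM in replicate 2 and 54.2 in replicate 1. Of the light chains that tie conventional kinesin to cargo, KLC1 had 152 and 135 CPM, KLC2 71.0 and 88.3, KLC4 16.7 and 19.0, and KLC3 47 and 58 counts. KIFAP3, the remaining subunit of the motor formed by KIF3A and KIF3B, had 53.5 and 47.6 CPM. The mitochondrial receptors RHOT1 and RHOT2 had 45.5 and 40.1 CPM for RHOT1 and 124 and 149.8 for RHOT2, and the adaptors TRAK1 and TRAK2 that link them to kinesin had 83.5 and 69.8 CPM for TRAK1 and 55.8 and 38.4 for TRAK2. In the same exact test 6 of 13 transport partners were higher in replicate 2, against 30.1% of all genes, and 5 in replicate 1, against 27.6%.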

How the data were processed

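Bulk RNA-seq of polyadenylated RNA from 2 libraries of doxorubicin-resistant SUM159 cells was used. The deposited values are unnormalised counts for gene symbols, in a table per library. The authors aligned 100-bp single-end reads from directional libraries against hg19 (HISAT2) and assigned them to genes (HTSeq). The submitters' processing notes also list FastQC and deepTools. The sources used here do not give tool versions, the annotation or the strand option. HTSeq by default drops reads of ambiguous origin.

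From the counts, CPM were computed from library totals, and CPM per kb from the union of exons in GENCODE release 44 lifted to GRCh37, to which 19311 of 23368 symbols and all 42 kinesins matched. Promoters come from RefSeq on GRCh38.p14. The libraries were compared by the exact binomial test of edgeR (binomTest, two-sided) with Benjamini-Hochberg adjustment over genes with at least 10 counts in total, and log2 ratios carry 0.5 added counts. The length trend is a lowess curve with a span of 0.3. The test and the curve were tried on simulated counts that vary by counting error only. The 2 libraries differ by more than that, so the simulation does not show how the test behaves on them. With 1 condition no test between conditions was possible.

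Every gene found by the symbol rule is accounted for. By the rule for named genes, values by library were given for the 5 highest and 3 lowest of each role list, groups of paralogs, the 3 largest library differences in each direction, KIF2C and KIFC1, and those of further members were added after their values were seen. Members and lists were chosen with earlier results of these data known. R 4.3.3, edgeR 4.0.16, DESeq2 1.42.0 (size factors as an alternative scale), Python 3.11.15, pandas 2.3.3 and matplotlib 3.10.9 were used.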

Additional observations from a re-analysis of the deposited data

How the results depend on the processing

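With 1 condition and 2 libraries, levels rest on 2 values each and p-values cover counting error between 2 libraries. The number of kinesins above the minimum mean count was 31, and 34 and 27 with minimums of 10 and 100, and 31 without either replicate, although without replicate 1 KIFC1, with 12 counts in replicate 2, dropped out and KIF4B, with 23, came in. The log2 ratio of the mitotic over the transport median, 1.50 per kb of exonic length, was 1.03 on the CPM scale without length and 1.20 over members with a mean count of at least 20, and between 1.44 and 1.57 when a replicate was left out. It was 1.49 with the longest transcript and 1.54 without KIFC1, a setting chosen after seeing the data. TMM and DESeq2 size factors scale all genes of a library alike and left it at 1.50. The 30 kinesins called between the libraries remained 30 under TMM, DESeq2 size factors and no filter on low counts, each with the same verdict for all 35 genes, and 25 with the length trend taken out, where the ratios of KIF1C and KIF21A changed sign to -0.018 and -0.044 and lost their calls. The median residual from the trend over kinesins was 0.42, 0.24 with the longest transcript and 0.37 with at least 100 counts. Above the trend were 28 of 35 kinesins, 25 of 35 with the longest transcript and 22 of 29 with at least 100 counts. The test between libraries cannot be run without a replicate. No paired analysis was possible because there is 1 group.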

Other observations

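Exons of several kinesins overlap genes on the other strand, and without a stated strand setting such reads cannot be assigned. DIMT1, with 1913 counts in replicate 2 and 2514 in replicate 1, shares 2446 exonic bases with KIF2A, 18.7% of the exonic length of KIF2A. FOXH1, with 2 counts in each library, overlaps 17.8% of the exonic length of KIFC2. TICRR overlaps 10.8% of that of KIF7. At KIF20A, CDC23 and BRD8 overlap 74 and 132 bases, 1.92% and 3.43% of its exonic length. Within KIF5A, whose counts were low, DCTN2 with 2298 and 3331 counts overlaps 71 bases.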
